A study of Mus musculus with 2 samples.

Results

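The 34 genes described here are interferon-stimulated genes, genes that interferons of type I or type II switch on in mouse cells. They were chosen by symbol as known genes of the pathway, with earlier results of these data in view and without major histocompatibility complex and proteasome genes, and all 34 are among the 24054 genes of the deposited table of transcript levels. Their levels were compared between liver RNA of Pgrmc1 KO mice, which lack progesterone receptor membrane component 1, and of wild-type (WT) mice. The KO mice were males of genotype Pgrmc1 -/Y in which exons 1 and 2 of the X-linked gene had been removed in the whole body, by crossing mice with loxP sites around these exons to a line with Cre recombinase under the Sox2 promoter, which is active in the early embryo. The WT mice were males too, and both groups had the strain label C57BL/6 and an age of 8 to 12 weeks. The sources used here do not say whether the WT mice were littermates or carried Cre, and describe no treatment of either group.

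Liver RNA of 5 mice per genotype (2.5 μg each) had been pooled before sequencing, so each genotype is 1 library, the spread between mice is unknown and none of the differences below has a replicate check or a p-value. The authors deposited TPM (a transcript level scaled for transcript length and for the size of the library) and, in a second table, a mean signal per library, that is, its estimated reads after scaling by a size factor. The second table holds an estimated 22086692 reads in KO and 29710419 in WT. Pgrmc1 itself was at 0.68 TPM in the KO and 949.49 in the WT library, a log2 difference of -9.14, which is the direction the labels give. The liver label was checked with 9 hepatocyte markers, which were all detected and summed to 75145.77 TPM in the KO and 78066 in the WT library.

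Interferons are secreted proteins that warn cells of viruses and other microbes. Type I interferons (the alpha family and beta) bind a receptor that activates STAT2 and IRF9, which together bind the interferon-stimulated response element (ISRE) in front of target genes. Type II interferon (gamma) acts through the gamma-activated site (GAS). The products of the target genes block viral translation and replication, sense foreign nucleic acid, attack the vacuoles in which microbes live, recruit T cells, or feed back on the pathway. Many of these genes have a low level in healthy tissue, set by interferon made without infection and by basal activity of the factors. In liver, hepatocytes, Kupffer cells and endothelial cells all express interferon receptors.

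The RefSeq promoter table of GRCm38.p6 (250 bases before to 50 after each annotated start) held 26 of the 34 genes. It did not hold Usp18, Mx1, Mx2, Dhx58, Zbp1, Iigp1, Gvin1 or Parp14. Promoters were searched on both strands for the core of the ISRE (GAAA, any 2 bases, GAAA) and for the core of the GAS (TTCNNNGAA). An ISRE core was found in 15 of the 26 genes (57.7%) and in 3.99% of all 27025 genes of the table. A GAS core was found in 7 of the 26 (26.9%) and in 9.55% of all genes. Both cores were found in 5 genes, and the promoters of 9 genes (Phf11c, Cxcl9, Ifi44, Ifi47, Irf7, Irf9, Oasl1, Oasl2 and Xaf1) held neither in this window. The RefSeq start used for Phf11c lies inside a longer GENCODE transcript of the gene. A match describes letters, not binding, and the cores of neighbouring matches can overlap, as in Isg15. The promoters of 5 genes, each chosen with a match, are printed 5′ to 3′ along the gene, with matches in capitals. Ifit3 and Rsad2 were lower in the KO library than in the WT library by more than counting error, and Stat2 and Irf1 were higher. Isg15 belongs to the same antiviral group as Ifit3 but did not differ by more than counting error. Phf11c, Cxcl9, Ifi47 and Irf9 also differed by more than counting error, held neither core and are not printed. Ifit3 lies on the plus strand (chr19:34583279-34583578) and holds the ISRE core at 156 and 122 bases before the start, in the reverse reading. The window printed for Ifit3 lies inside the annotated gene, which begins at 34583119. Isg15 lies on the minus strand (chr4:156200769-156201068) and holds 3 overlapping ISRE cores, the first at 78 bases before the start. Rsad2 (minus strand, chr12:26456403-26456702) has 1 at 120 bases before it, and Stat2 (plus strand, chr10:128270248-128270547) has 1 at 222 bases. Irf1 (plus strand, chr11:53769764-53770063, the first of its 2 annotated starts) has no ISRE core but a GAS core at 90 bases before the start.
Ifit3: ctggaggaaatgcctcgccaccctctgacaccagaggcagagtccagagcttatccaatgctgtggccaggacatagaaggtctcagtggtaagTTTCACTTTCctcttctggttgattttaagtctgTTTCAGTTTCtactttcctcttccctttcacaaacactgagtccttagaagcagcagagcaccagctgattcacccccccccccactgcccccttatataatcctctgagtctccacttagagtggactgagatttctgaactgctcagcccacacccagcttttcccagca
Isg15: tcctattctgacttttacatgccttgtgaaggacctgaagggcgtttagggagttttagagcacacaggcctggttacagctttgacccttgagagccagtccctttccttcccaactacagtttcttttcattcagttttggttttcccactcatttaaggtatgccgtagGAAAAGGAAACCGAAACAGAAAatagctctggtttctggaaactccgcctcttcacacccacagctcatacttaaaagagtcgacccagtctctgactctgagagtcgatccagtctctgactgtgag
Rsad2: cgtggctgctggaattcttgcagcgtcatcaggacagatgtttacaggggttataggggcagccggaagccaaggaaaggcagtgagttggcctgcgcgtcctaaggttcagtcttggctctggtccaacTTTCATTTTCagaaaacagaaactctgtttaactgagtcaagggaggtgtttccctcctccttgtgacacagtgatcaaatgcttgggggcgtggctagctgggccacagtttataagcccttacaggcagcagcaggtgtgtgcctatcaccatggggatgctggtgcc
Stat2: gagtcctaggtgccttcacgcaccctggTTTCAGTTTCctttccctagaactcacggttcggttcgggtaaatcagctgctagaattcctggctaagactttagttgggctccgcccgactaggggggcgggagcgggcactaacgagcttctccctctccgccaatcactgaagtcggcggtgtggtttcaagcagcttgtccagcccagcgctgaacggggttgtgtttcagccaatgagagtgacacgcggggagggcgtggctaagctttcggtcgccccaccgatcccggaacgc
Irf1: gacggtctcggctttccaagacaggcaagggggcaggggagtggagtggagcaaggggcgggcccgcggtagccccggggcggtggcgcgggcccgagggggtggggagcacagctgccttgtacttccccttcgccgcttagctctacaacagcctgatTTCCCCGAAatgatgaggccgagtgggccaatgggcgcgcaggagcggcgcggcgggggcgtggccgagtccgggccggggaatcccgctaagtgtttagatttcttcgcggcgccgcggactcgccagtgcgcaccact

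The interferon-stimulated genes summed to 682.2 TPM in the KO and 701.0 in the WT library. Most of both sums came from Iigp1 (210.09 and 210.91 TPM) and Bst2 (182.63 and 183.28 TPM), so they say little about the other genes. The 21 genes averaging below 10 TPM, Mx1 among them, summed to 85.49 TPM in the KO and 98.31 in the WT library. The log2 ratio of these sums was -0.20. The 13 others summed to 596.71 and 602.69 TPM (-0.01). Of the 34 genes, 1, Phf11c, differed beyond the fold limits used here. Each difference is the log2 of KO TPM + 1 over WT TPM + 1, which makes low genes look less different than they are, and a gene was called higher with a fold of at least 1.4 (log2 0.49) or lower with a fold of at most 0.6 (log2 -0.74), provided that its mean was at least 1 TPM. Of the 34 genes, 33 reached that mean, and Mx1 did not. None of the 33 was called higher, where 141 of all 11623 genes tested were (1.21%), and Phf11c was called lower, where 35 of all genes were (0.301%). The median log2 difference of the 33 genes was -0.11 and that of all genes tested -0.01. A negative difference was found for 24 of the 33 (72.7%) and for 53.8% of all genes tested. With the authors' means these shares were 20 of 33 (60.6%) and 50.9%, since Bst2, Iigp1, Irgm1 and Zbp1 lay near 0 and changed sign.

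**Figure D1:**
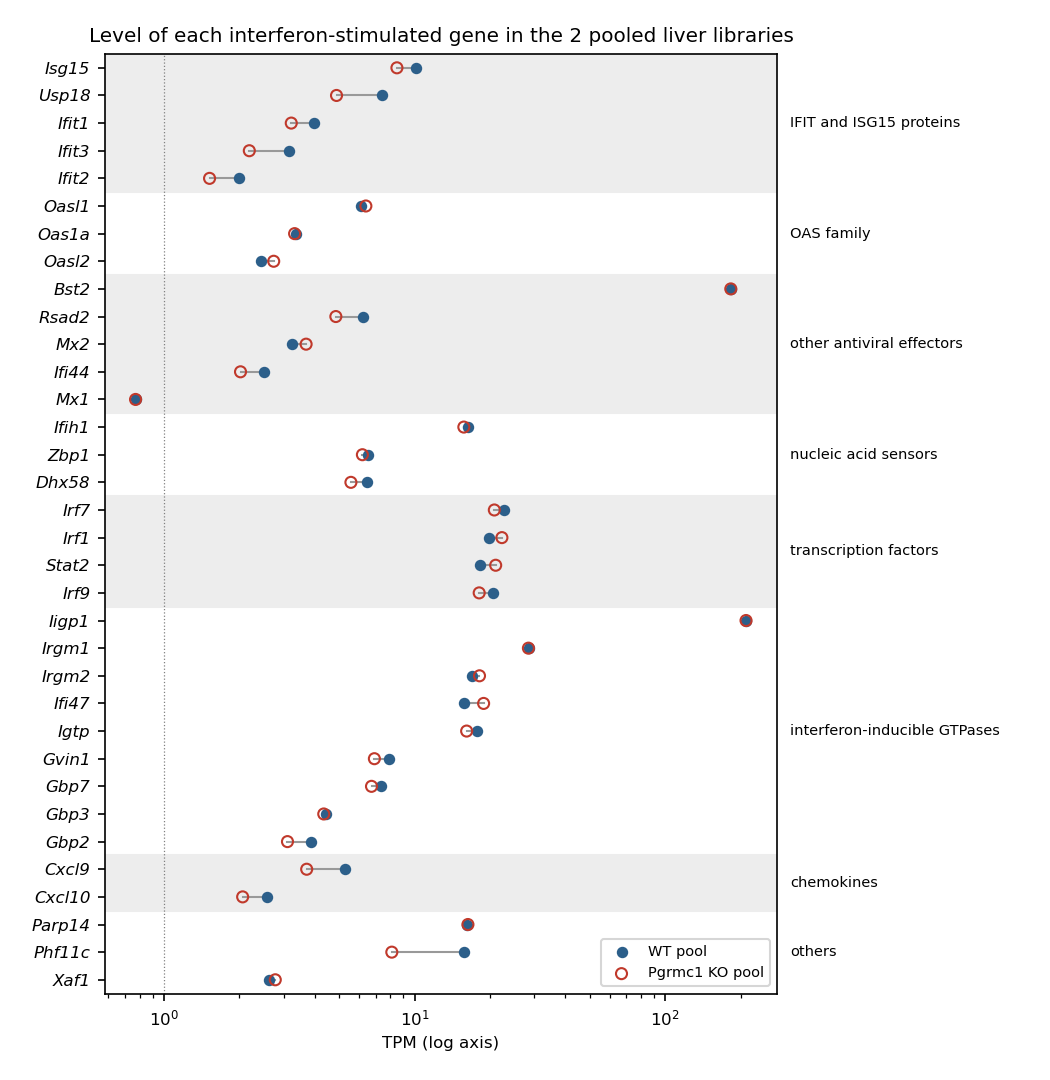
TPM of the 34 interferon-stimulated genes in the WT pool (filled blue) and in the Pgrmc1 KO pool (open red), on a log axis and grouped by role. Each point is 1 pooled library, and the dotted line marks 1 TPM. Iigp1 and Bst2 stand far to the right of the other genes, at about the same level in both pools, and the widest gap between pools is that of Phf11c (8.11 TPM in the KO and 15.72 in the WT library).

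To set each difference against counting error, an exact 95% interval of the KO to WT ratio was computed from the estimated reads behind the authors' means. These intervals compare the 2 libraries, not the genotypes, and cover counting error only. For 3 of the 33 genes (Ifi47, Stat2 and Irf1, 9.09%) the interval lay above 0 on the log2 scale, where it did so for 11.7% of all genes tested. For 7 of the 33 genes (Phf11c, Usp18, Cxcl9, Ifit3, Rsad2, Irf9 and Gvin1, 21.2%) it lay below 0, against 13.4% of all genes tested. The intervals of the other 23 genes held 0.

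The negative differences lay mostly among genes of low level. Of the 20 genes whose mean lay from 1 to under 10 TPM, 16 were lower in KO (80%), their median was -0.20, and the intervals of 5 lay below 0 and of none above. These 5 include Gvin1, whose value is uncertain (below). Among all genes in that range 49.2% were lower in KO, the median was 0.00, and 7.11% had an interval below 0 and 8.55% above. Of the 13 genes whose mean reached 10 TPM, 8 were lower (61.5%), their median was -0.01, and among all genes of that level 57.8% were lower. The intervals of 2 of the 13 lay below 0 (15.4%) and of 3 above (23.1%), beside 18.8% and 14.5% of all genes of that level. The 5th and the 95th percentiles of all genes from 1 to under 10 TPM were -0.31 and 0.32, and Usp18, Cxcl9 and Ifit3 lay below that range.

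**Figure D2:**
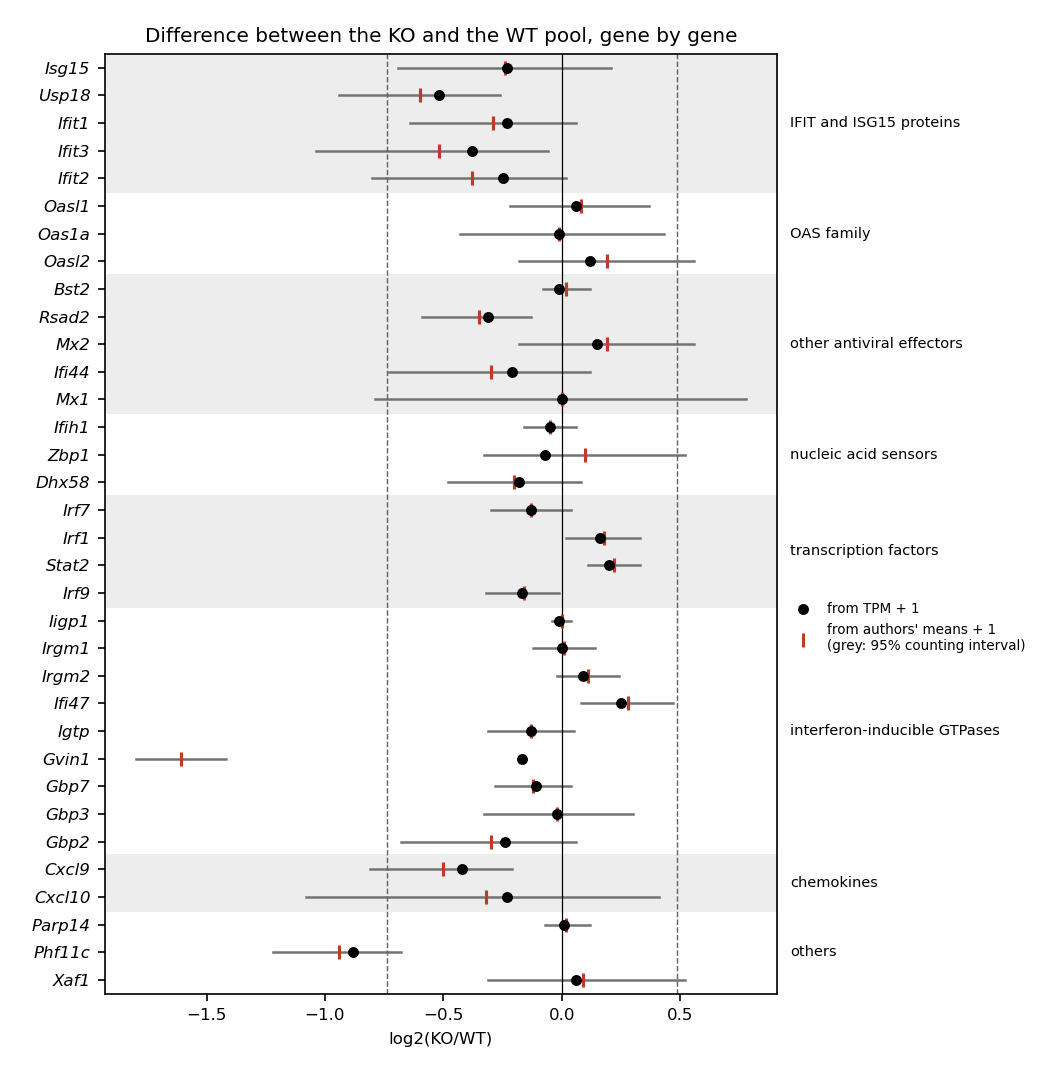
Log2 ratio of the KO to the WT pool for each gene, from TPM + 1 (black points) and from the authors' means + 1 (red ticks), with the 95% counting interval of the ratio of means (grey). Dashed lines mark the fold limits of 1.4 and 0.6. Phf11c lies beyond the lower limit by both measures, Gvin1 by the means only (-0.17 from TPM and -1.61 from the means), and all 5 IFIT and ISG15 genes lie left of 0.

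The IFIT and ISG15 group was lower in the KO library throughout, with differences from -0.52 to -0.23 and a median of -0.25. Together the 5 genes had 20.31 TPM in the KO and 26.69 in the WT library, a log2 ratio of the sums of -0.39. Usp18 removes ISG15 from proteins and holds back the type I receptor, and it was the lowest of the group, at 4.88 TPM in the KO and 7.43 in the WT library. Its log2 difference was -0.52 (95% interval -0.94 to -0.26, on 109 and 223 estimated reads), and 0.852% of all genes tested had a lower value. Its fold of 0.698 does not reach the limit of 0.6. Usp18 lies on chromosome 6 (121245906 to 121270917 of GRCm38) and shares no 100-base window of its transcripts with another gene.

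Ifit1, Ifit2 and Ifit3 encode proteins with tetratricopeptide repeats that bind viral RNA or the translation machinery, and they lie in a cluster on chromosome 19 (34550550 to 34650009) that also holds Ifit3b and Ifit1bl2. Ifit3 was at 2.19 TPM in the KO and 3.15 in the WT library, a difference of -0.38 with an interval of -1.04 to -0.06. Its counts were low (55.4 and 107.5 estimated reads), and 31.7% of its windows are also found in its copy Ifit3b, which the table does not list under that symbol. Ifit2 was at 1.52 and 1.99 TPM (-0.25) and Ifit1 at 3.22 and 3.96 TPM (-0.23), with intervals that reached 0.02 and 0.06. Isg15 encodes the ubiquitin-like modifier itself and was at 8.50 TPM in the KO and 10.16 in the WT library, a difference of -0.23 whose interval ran from -0.69 to 0.21. All 5 genes thus had the same sign, and the intervals of Usp18 and Ifit3 alone lay below 0, that of Ifit3 at 95% but not at 99% (-1.19 to 0.08).

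The OAS family is named for enzymes that make 2′-5′ oligoadenylates, which switch on RNase L. Oas1a was at 3.32 TPM in the KO and 3.36 in the WT library (-0.01). Oasl1 was at 6.39 and 6.11 TPM (0.06) and Oasl2 at 2.74 and 2.43 TPM (0.12). All 3 intervals held 0, and they reached down to -0.43 for Oas1a, -0.22 for Oasl1 and -0.18 for Oasl2. Oas1a shares 40.9% of its windows with Oas1g, and summed with its copies it differed by -0.04.

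Among the other antiviral effectors, Bst2 (tetherin, which holds budding virus particles at the cell surface) was by far the most abundant, at 182.63 TPM in the KO and 183.28 in the WT library. Its difference was -0.01, with an interval of -0.08 to 0.12 on 1530 and 2037 estimated reads. Rsad2 (viperin) makes a nucleotide that stops viral RNA synthesis, and it was lower in KO, at 4.85 TPM against 6.24 TPM. The difference of Rsad2 was -0.31 (interval -0.59 to -0.13, on 246 and 425.2 estimated reads), and 3.75% of genes tested had a lower one. Ifi44 was at 2.02 and 2.50 TPM (-0.21, interval -0.73 to 0.12). The dynamin-like GTPase genes Mx1 and Mx2, which RefSeq lists as transcribed pseudogenes in its C57BL/6J annotation, were at 0.77 TPM in both libraries and at 3.69 and 3.24 TPM (0.15, interval -0.18 to 0.56), respectively. Bst2 was thus near-equal in the pools, and of the lower values only that of Rsad2 had an interval below 0.

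All 3 nucleic acid sensors had slightly lower TPM in KO, with a median of -0.07. Ifih1 (MDA5), which recognises long double-stranded RNA, was at 15.72 TPM in the KO and 16.34 in the WT library (-0.05, interval -0.16 to 0.06). Dhx58 (LGP2), which modulates MDA5, was at 5.57 and 6.46 TPM (-0.18). Zbp1, a sensor of Z-form nucleic acid that can start cell death, was at 6.19 and 6.53 TPM (-0.07), and by the authors' means its sign turned, to 0.10. The intervals of all 3 held 0.

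The transcription factors of the pathway had levels near 20 TPM and split in direction. Stat2, a transcription factor of the type I pathway, was higher in KO, at 21.06 TPM against 18.20 TPM. Its difference was 0.20 (interval 0.11 to 0.33, on 1254 and 1452 estimated reads), and 91.2% of all genes tested had a lower one. Irf1, an early target of interferon gamma, was at 22.30 and 19.86 TPM (0.16, interval 0.02 to 0.33). Irf9, the DNA-binding partner of STAT2, was at 18.10 and 20.46 TPM (-0.17, interval -0.32 to -0.01), and Irf7, the factor that amplifies the alpha family, at 20.80 and 22.81 TPM (-0.13, interval -0.30 to 0.04). Stat2 and Irf9 thus had 95% intervals on opposite sides of 0, and each was well inside the fold limits. With 99% intervals Irf9 (-0.37 to 0.04) and Irf1 (-0.03 to 0.38) held 0. On chromosome 10, Stat2 (128270498 to 128292853) overlaps the liver gene Apof in the annotation. Phf11c, Usp18, Ifi47, Gvin1, Isg15, Ifit1, Ifih1, Dhx58, Gbp2, Gbp3 and Cxcl10 each overlap another annotated gene too. The part of such overlaps in the levels was not tested.

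The interferon-inducible GTPases attack vacuoles that hold bacteria and parasites, and this group of 9 genes summed to 312.76 TPM in the KO and 313.36 in the WT library. Iigp1 (Irga6) had the highest level of all 34 genes, 210.09 TPM in the KO and 210.91 in the WT library. With 8512.3 and 11461.7 estimated reads its interval was the narrowest, -0.04 to 0.04 beside a difference of -0.01. Irgm1, a regulator of the other GTPases, was at 28.45 and 28.50 TPM (0.00) and Irgm2 at 18.15 and 16.94 TPM (0.09). Igtp (Irgm3), which lies beside Irgm2 on chromosome 11, was at 16.13 and 17.81 TPM (-0.13). Ifi47 (Irg47) was at 18.85 TPM in the KO and 15.71 in the WT library, a difference of 0.25 (interval 0.08 to 0.47) and the highest of the 33. Of all genes tested, 94.0% had a lower difference than Ifi47.

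The guanylate-binding proteins Gbp2, Gbp3 and Gbp7 coat pathogen vacuoles together with these GTPases, and the intervals of all 3 held 0. Gbp2 was at 3.11 TPM in the KO and 3.85 in the WT library (-0.24). The related gene Gbp2b was at 2.09 TPM in the KO and 1.74 in the WT library (0.17). Gbp2 and Gbp2b share no window of their transcripts. Their sum differed by -0.09, which mixes distinct genes of opposite sign and does not make the value of Gbp2 uncertain. Gbp3 was at 4.34 and 4.42 TPM (-0.02) and Gbp7 at 6.73 and 7.35 TPM (-0.11). The GTPase group therefore ran from -0.24 for Gbp2 to 0.25 for Ifi47 around a median of -0.02.

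Gvin1, a very large inducible GTPase, was the gene for which the 2 deposited tables disagreed. It had 6.91 TPM in KO against 7.87 in WT (-0.17), but the authors' means were 337.20 and 1029.21, a log2 ratio of -1.61 with an interval of -1.80 to -1.42. No other of the 34 genes differed between the tables by more than 0.17. In GENCODE transcripts, 97.8% of the 100-base windows of Gvin1 (chromosome 7, 106156535 to 106215340) are also found elsewhere, nearly all in Gm4070 (105895118 to 105953967), a copy on the same chromosome. Gm4070 was higher in KO in the means (2239.05 and 1641.16) and hardly differed in TPM (11.17 and 10.96). Summed with Gm4070, Gm1966 and Gm17757, Gvin1 differed by -0.08 in TPM (23.10 and 24.56) and by -0.05 in the means (3281.7 and 3391.7). The value of Gvin1 alone is therefore reported as uncertain, and without it the intervals of 6 genes lay below 0.

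**Figure D3:**
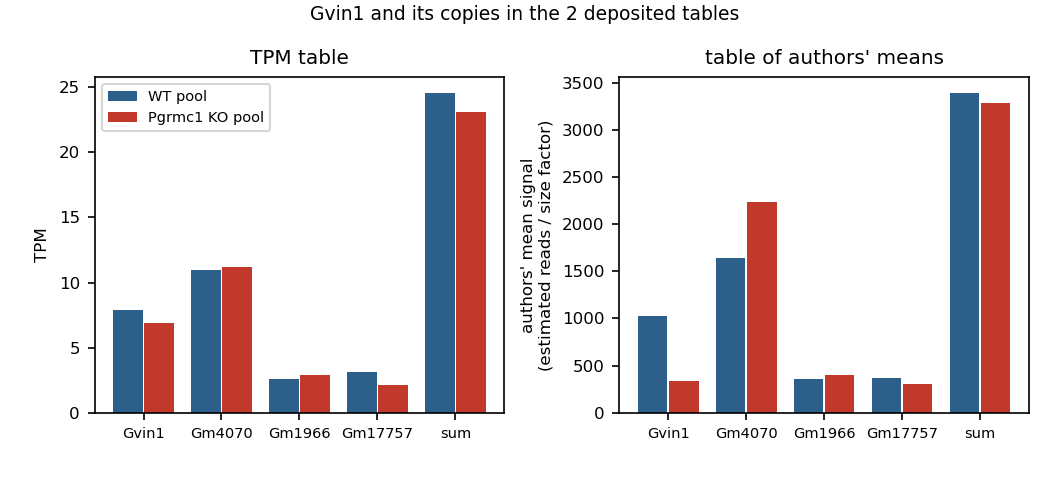
Level of Gvin1, of 3 copies of it and of their sum in the WT pool (blue) and the KO pool (red), as TPM (left) and as the authors' means (right), with both axes from 0. In the means Gvin1 is lower in KO (337.20 against 1029.21) and Gm4070 higher (2239.05 against 1641.16), while the sums are close in both tables.

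Both chemokines, ligands of CXCR3 that draw in T cells and natural killer cells, were lower in KO. Cxcl9, induced mainly by interferon gamma, was at 3.71 TPM in the KO and 5.29 in the WT library, a difference of -0.42 (interval -0.81 to -0.21, on 142 and 272 estimated reads), and 1.63% of genes tested had a lower one. Cxcl10, its neighbour on chromosome 5, was at 2.06 and 2.58 TPM (-0.23), but on 26 and 44 estimated reads its interval ran from -1.08 to 0.41. A difference in Cxcl10 was not detectable at this depth.

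Phf11c, a PHD finger gene of a cluster on chromosome 14 whose function is little known, was the gene called lower in the KO library. Its level was 8.11 TPM in the KO and 15.72 in the WT library, a fold of 0.545 and a log2 difference of -0.88 (interval -1.22 to -0.68, on 161.4 and 418.9 estimated reads). The authors' means gave -0.94, and 0.163% of all genes tested had a lower difference. Phf11c (Entrez gene 628705; 59380833 to 59393512) lies next to its paralogs Phf11a, Phf11b and Phf11d, with which it shares 5.86% of its windows. Phf11a was at 3.0 TPM in the KO and 2.83 in the WT library, Phf11b at 0.98 and 1.03 TPM, and Phf11d at 1.68 and 2.29 TPM (-0.30, interval -0.92 to 0.03). The 4 genes together had 13.77 TPM in the KO and 21.87 in the WT library (-0.63), so the lower level of Phf11c was not matched by a higher one of its paralogs. The remaining genes had near-equal levels in the pools. Parp14, an ADP-ribosyltransferase, was at 16.32 and 16.15 TPM (0.01), and Xaf1, a partner of apoptosis inhibitors, at 2.78 and 2.62 TPM (0.06).

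**Figure D4:**
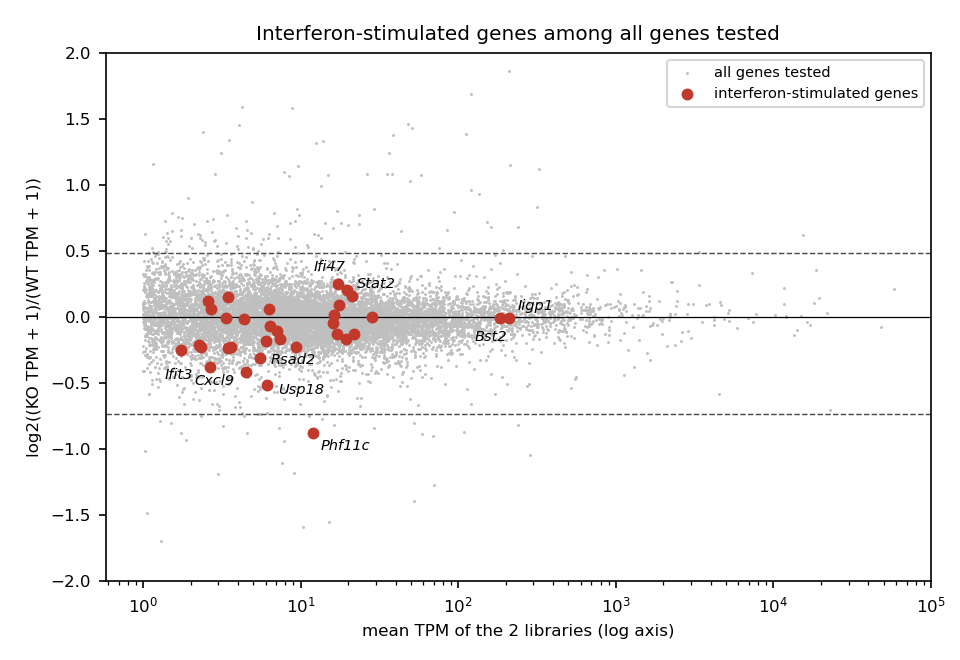
Log2 difference against mean TPM (log axis) for all genes tested (grey) and the 33 interferon-stimulated genes tested (red), with dashed lines at the fold limits. The axis stops at 2 and -2, which leaves out 19 genes. Phf11c lies beyond the lower line, Usp18, Cxcl9, Ifit3 and Rsad2 on the lower side of the grey cloud, and Iigp1 and Bst2 on 0.

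The promoters were also set beside the differences, as a description. Of the 15 genes with the ISRE core, 13 were lower in KO, with a median of -0.11 and a range from -0.38 for Ifit3 to 0.20 for Stat2. Of the 11 without it, 6 were lower, with a median of -0.13 and a range from -0.88 for Phf11c to 0.25 for Ifi47. Of all genes tested, 53.8% were lower. The 13 genes include Bst2 (-0.01), Irgm1 (0.00), Oas1a (-0.01) and Gbp3 (-0.02), and Bst2 and Irgm1 changed sign with the authors' means. A link between the core and the differences was not tested. Among a further list of interferon-stimulated genes (below), 28 of the 51 with a promoter held an ISRE core (54.9%).

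Upstream of these genes, the interferon ligands were listed at trace values and no gene of the receptors, signalling or sensing lists passed the fold limits on TPM + 1. The 21 ligand genes were listed at 0.04 to 0.18 TPM, highest at 0.18 in KO and 0.14 in WT for Ifna1 and 4 others of the alpha family (Ifna5, Ifna6, Ifna14 and Ifna16), and none is in the second table. Their KO to WT ratios ran from 1.22 to 1.4, close to the median ratio of 1.30 of all 7736 genes that the second table leaves out and to the ratio of estimated reads, 1.35 in the opposite order of libraries (WT to KO), and they are not taken here as expression. Of the 5 receptor genes tested, 3 were higher and 2 lower in KO (median 0.03), from -0.18 for Il10rb, a subunit of the interferon lambda receptor (6.12 and 7.08 TPM), to 0.23 for Ifngr2, the accessory chain of the interferon gamma receptor (17.29 and 14.57 TPM). Of 10 genes of JAK-STAT and IRF signalling, 4 were higher and 6 lower (median -0.06), from -0.15 for Irf8 (3.39 and 3.87 TPM) to 0.26 for Irf5 (10.73 and 8.81 TPM). Of 11 genes listed as negative regulators, 6 were higher and 5 lower (median 0.05). The 6 include Isg20 (0.25), an interferon-induced exonuclease gene that is not a regulator of the pathway in the strict sense. The highest of the 11 was Socs3, which blocks JAK kinases, at 6.16 and 4.79 TPM (0.31, interval 0.10 to 0.65). The lowest was Trex1, a DNase that removes cytosolic DNA, at 9.15 and 10.35 TPM (-0.16). Of 16 genes that sense nucleic acid and lead to interferon, 8 were higher and 8 lower (median -0.01). They ran from -0.33 for the kinase gene Ikbke (5.94 and 7.70 TPM, interval -0.59 to -0.14) to 0.45 for Tmem173, which encodes STING (1.75 and 1.01 TPM, interval 0.16 to 1.47). Tmem173 passed the upper limit by the authors' means (0.79) and with a pseudocount of 0.1 TPM.

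A further list of interferon-stimulated genes outside the 34 was spread around 0. Of 77 genes named, 73 were listed and 64 tested, with 29 higher and 35 lower in KO, none of them past the fold limits on TPM + 1, and a median of -0.02. By the authors' means Aim2 (0.62) and Gm12250 (-0.84) passed them. The counting intervals of 9 lay above 0 (14.1%, beside 11.7% of all genes tested) and of 10 below (15.6%, beside 13.4%), and the 73 listed genes summed to 1828.39 TPM in the KO and 1862.56 in the WT library. The lowest was Cmpk2, a mitochondrial nucleotide kinase gene beside Rsad2 on chromosome 12, at 3.01 and 4.84 TPM (-0.54, interval -1.0 to -0.37). The highest was Aim2, a sensor of cytosolic DNA, at 2.77 and 1.82 TPM (0.42, interval 0.19 to 1.09). Cmpk2 lay as low as Usp18, while the median of this list was within 0.01 of that of all genes tested.

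**Figure D5:**
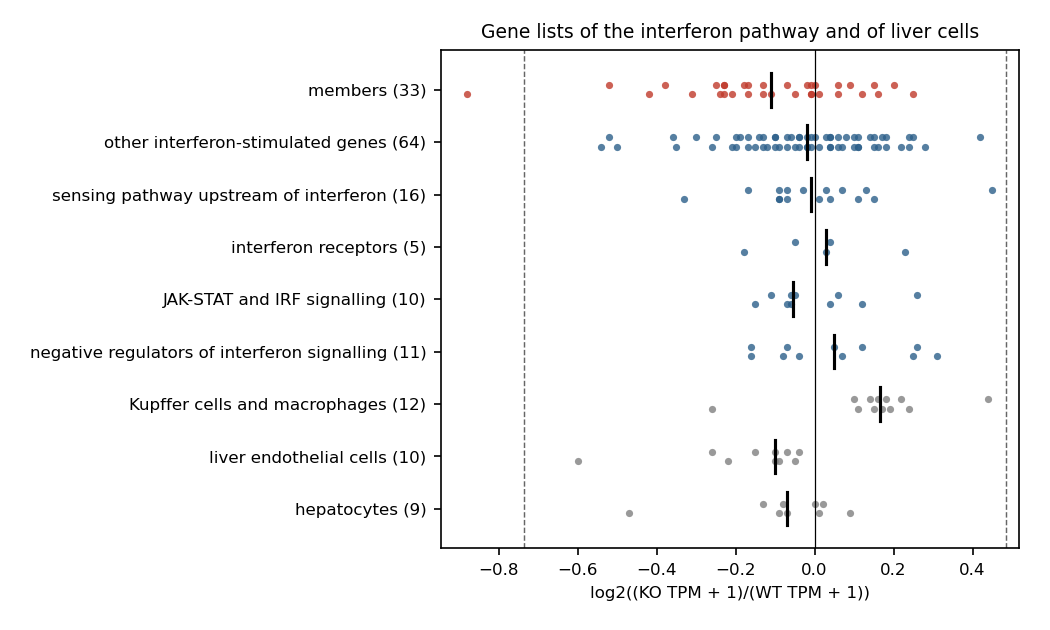
Log2 difference of each gene tested in the 34 interferon-stimulated genes (labelled members, red), 5 further lists of the interferon pathway (blue) and 3 lists of liver cell markers (grey). The number of genes tested is in brackets, black bars are medians and dashed lines the fold limits. The medians of the pathway lists lie between -0.11 and 0.05, and of the marker lists the Kupffer genes lie mostly right of 0 and the endothelial genes left of 0.

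Markers of liver cell types were also unequal between the pools. In bulk RNA, fewer cells of a type and less RNA per cell cannot be told apart. Of 12 Kupffer cell and macrophage markers tested, 11 were higher in KO, with a median of 0.17 and sums of 422.95 TPM in the KO and 372.96 in the WT library. The lowest was Cd68 (-0.26) and the highest Folr2 (0.44), and 7 had an interval above 0. All 10 markers of liver endothelial cells were lower in KO, with a median of -0.10, from -0.60 for Lyve1 (11.47 and 17.94 TPM) to -0.04 for Stab2, and sums of 219.32 and 242.26 TPM. Of these 10, 3 had an interval below 0, and the intervals of the other 7 held 0. The 9 hepatocyte markers had a median of -0.07, with 6 lower and 3 higher, and 5 intervals lay below 0 and 3 above. Of all genes tested, 45.8% were higher and 53.8% lower, and 11.7% had an interval above 0 and 13.4% below. Markers of blood cells were near the limit of detection. None of the 14 T and natural killer cell markers reached a mean of 1 TPM (sums 6.17 TPM in the KO and 6.14 in the WT library). Among them Nkg7 had 0 reads in KO and 12 in WT (0.11 and 1.08 TPM), and its interval lay below 0 (upper end -1.04). The intervals of the other markers of this list held 0. A mean of 1 TPM was reached by 1 of 6 B cell markers (sums 2.75 and 2.12 TPM). It was also reached by 1 of 6 plasmacytoid dendritic cell markers (sums 2.29 and 2.58 TPM, Cox6a2 with 0 reads in KO). Of 8 monocyte and neutrophil markers 3 were tested, with differences from 0.01 for S100a8 to 0.36 for S100a9 and intervals that all held 0 (sums of the 8 markers 10.99 and 10.26 TPM, Retnlg with 0 reads in KO). Their median was 0.14, and that of all 8 without the minimum level 0.01. The part of these cell types in the levels of the interferon-stimulated genes was not tested.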

How the data were processed

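The authors aligned paired reads of each pooled library to mm10 and estimated levels with RSEM 1.2.09 (Bowtie), after base calling with CASAVA 1.8.2. RSEM shares a read that matches several genes among them, and the value of its strand option is not given in the sources used here. They deposited posterior mean TPM for 24054 genes (1005325 in all for KO, 994702 for WT). For 16318 genes they also deposited a mean signal per library, which is estimated reads over a size factor. The other 4 columns of that table hold the authors' own fold changes and probabilities and were not used. The filter between the tables is not given in the sources used here.

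From the TPM, log2 differences were computed with a pseudocount of 1 and a minimum mean of 1 TPM. The most frequent low value of the means (1.16 in KO, 0.86 in WT) was taken as 1 read. Of the values, 78.4% and 75% were then whole within 0.02, so no count model was fitted across genes. Clopper-Pearson intervals used reads rounded to whole numbers and are approximate for genes whose reads were shared. Samples were grouped by their labelled genotype. Every gene of the list is named. For the other lists the lowest and highest gene tested are named, and the Ifna genes, Isg20, Gm12250, Nkg7, Cox6a2, Retnlg and the copies were added. The list, the lists beside it and the alternatives were chosen with earlier results of these data known. The fold limits are those of the study, set here on TPM + 1 and without its limit on the probability of differential expression. Coordinates are RefSeq on GRCm38, and windows come from GENCODE transcripts. The computations were tested on simulated data, in Python 3.11.15 (scipy 1.17.1, numpy 2.4.6, matplotlib 3.10.9, pandas 2.3.3).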

Additional observations from a re-analysis of the deposited data

How the results depend on the processing

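No paired analysis was possible because 1 pooled library stands for each genotype, and for the same reason no library could be left out. Of the 34 genes, 1 (Phf11c) was called lower. This became 2 when the authors' means replaced TPM (Gvin1 and Phf11c), 2 with a lower limit of 0.714 (Usp18 and Phf11c) and 0 with fold limits of 2 and 0.5. None was called higher under any alternative run. Over all genes tested, 141 were called higher and 35 lower. These counts were 296 and 80 with the authors' means, 45 and 13 with fold limits of 2 and 0.5, 62 and 17 at a minimum mean of 10 TPM, 280 and 70 with a pseudocount of 0.1 TPM, and 118 were lower with the limit of 0.714. The stricter limits and the higher minimum lower the counts by construction, and the cause of the other moves was not tested. The median of the interferon-stimulated genes lay between -0.13 and -0.01 over its alternatives. With 99% intervals, 2 genes lay above 0 and 5 below, and those of Irf1, Irf9 and Ifit3 held 0. Of single values, that of Gvin1 moved to -1.61 with the authors' means. Near 0, signs changed for Bst2, Iigp1, Irgm1 and Zbp1 with the means and for Bst2, Iigp1 and Irgm1 when the differences were centred on the median gene, where 21 of 33 (63.6%) were negative. Chosen after seeing the data, the IFIT and ISG15 group without Usp18 had a median of -0.24, and Tgtp2 summed with Tgtp1 moved to -0.09. Chosen after seeing the data too, the fold limits were applied to the genes of the other lists, of which 0 passed on TPM + 1. By the means, Tmem173, Aim2, Folr2, Cd79b and S100a9 were higher and Gm12250 lower, and with 0.1 TPM, Tmem173, Aim2 and Cd79b were higher and Gm12250 lower. Depth limits genes such as Cxcl10 (26 and 44 estimated reads). Pooling limits all of them.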

Other observations

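A few interferon-stimulated genes outside the list, chosen after their values were seen, lay near its lowest values. Apol9a, an apolipoprotein L gene, was at 22.72 TPM in the KO and 32.45 in the WT library (log2 difference -0.50, 95% counting interval -0.67 to -0.33). Its copy Apol9b was at 56.30 and 64.14 TPM (-0.19, interval -0.28 to -0.06). Apol9a shares 11.7% of its 100-base windows with Apol9b, and Apol9b shares 36.7% with Apol9a. RSEM divides reads between such copies, so the value of each gene alone is less certain. Gm12250, an immunity-related GTPase gene, was at 1.18 and 2.12 TPM (-0.52, interval -1.41 to -0.31).

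The T cell-specific GTPase genes Tgtp1 and Tgtp2 went in opposite directions, with 3.72 TPM in the KO and 5.04 in the WT library for Tgtp1 (-0.36) and 4.06 and 3.28 TPM for Tgtp2 (0.24). Tgtp1 shares 73.1% and Tgtp2 76.8% of its windows with other genes, mostly with each other, and their summed TPM were 7.78 in KO and 8.32 in WT (-0.09), so the values of each gene alone are uncertain.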
